A study of Mus musculus with 24 samples.

Results

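The genes described here are the 3 ternary complex factors of the mouse, Elk1, Elk3 and Elk4, and their DNA-binding partner Srf. Every probe set of the array that was annotated to one of these symbols alone was taken, and each is shown apart. The 4 genes are among 18193 with a probe set of their own, and they hold 13 of the 45037 probe sets that were not controls: 3 for Elk1, 4 for Elk3, 4 for Elk4 and 2 for Srf. Affymetrix Mouse430_2 arrays were used to measure messenger RNA in double-positive thymocytes, the immature CD4+ CD8+ T cells that undergo positive selection, the process the series addresses. The cells were sorted with anti-CD4 and anti-CD8 from the thymus of 12 male Black 6J mice at 8 weeks of age, with 3 mice of each genotype: wild type (WT), Sap KO (SapKO here), Elk KO (ElkKO) and the combined Elk/Sap KO (ElkSapKO). After a rest of 2 hours in culture, cells of each mouse were spun onto plates coated with anti-CD3, an antibody that engages the T cell receptor complex, or onto plates without it, and kept there for 30 min. This gave 8 groups of 3 arrays, and all mice went through the same sort and rest. Sap and Elk are read here as Elk4, whose protein is also called SAP-1, and Elk1. How the alleles were made, and where each probe set lies relative to the deleted part of a gene, is not given in the sources used here, so a probe set that kept its signal checks nothing.

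Ternary complex factors are ETS-family proteins that sit on DNA beside a dimer of serum response factor, the protein encoded by Srf. Srf recognises the CArG box, a run of A and T between CC and GG, and a ternary complex factor contacts an ETS motif next to it. ERK kinases phosphorylate the factors when a receptor such as the T cell receptor is engaged, and immediate early genes, Srf itself among them, are then transcribed. Srf also works with a different set of partners, the myocardin-related factors, which respond to actin and act on cytoskeletal genes.

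Markers of the labelled cell type were high in all groups: 10 markers of double-positive thymocytes averaged 11.03 to 11.60 (log2 signal) on the 24 arrays. Markers of macrophages and dendritic cells averaged 4.78 to 5.67 and erythroid markers 3.60 to 4.46. The former were uneven: median signals were 7.06 for H2-Aa, 6.74 for H2-Ab1, 6.31 for Csf1r and 5.18 for Lyz2. For Itgam, Itgax, Cd14 and Adgre1 they were 3.49 to 4.04. The 5 measured B cell markers averaged 6.31 to 6.61 for WT and 6.23 to 6.69 for ElkKO, 6.76 to 7.16 for SapKO, above every WT array, and 6.19 to 7.18 for ElkSapKO. They thus move with the Sap genotype in part, and their part in the Sap differences below was not tested. Their median signals were 11.80 for Ighm and 7.69 for Cd79b, but 4.71, 4.50 and 3.96 for Cd79a, Pax5 and Ms4a1. The highest signal of Xist, which male cells do not make, was 5.07 over its 3 probe sets on all arrays, and this value is used below as a mark of background. The 4 measured markers of mature single-positive T cells averaged less in ElkSapKO, at 6.17 to 6.76, than in WT, at 7.15 to 8.27, and the part of this in the ElkSapKO differences below was not tested. One array differed from the rest, that of untreated cells of ElkSapKO mouse 2: its deviations from the median array spanned 0.782 between their quartiles, against 0.182 to 0.383 on the other 23 arrays. The dap spike-in read 6.00 to 6.60 on 8 arrays (mice 1 and 2 of WT, mice 1 and 3 of SapKO), and 8.81 to 9.66 on the other 16 arrays, among them all 12 arrays of mice without Elk. The gap between the 3′ and 5′ probe sets of Actb averaged 0.22 for WT and 0.20 for SapKO, and was wider for ElkKO (0.49) and ElkSapKO (0.71). Both measures therefore move with the Elk genotype, and their part in the differences by Elk genotype below was not tested beyond a fit that has the dap level as a term.

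On its brightest probe set the Elk4 transcript was on average 10.03-fold lower in mice that lacked Sap, while of its other 3 probe sets one was 1.51-fold and one 1.58-fold lower and the last was not. Elk4, the ternary complex factor best known for its role in thymocyte selection, was read most strongly by probe set 1427162_a_at. In WT its log2 signal was 10.39, 10.35 and 10.69 untreated and 10.25, 10.67 and 10.82 after anti-CD3 (mice 1, 2 and 3). In SapKO it was 7.01, 6.88 and 7.27 untreated and 7.47, 7.44 and 7.59 after anti-CD3. In ElkKO it was 10.61, 10.58 and 10.88 untreated and 10.75, 10.54 and 10.99 after anti-CD3. All 6 ElkKO arrays thus lay with WT, far above the highest SapKO array. In ElkSapKO it was 7.19, 6.13 and 7.85 untreated and 7.44, 7.51 and 7.82 after anti-CD3. The lowest of these, 6.13, is the array that stood apart, and all 12 arrays without Sap remained above the highest Xist signal.

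Differences were tested with limma, with p-values adjusted over all probe sets by the Benjamini-Hochberg method, and a probe set is called, or said to have risen or fallen, where its adjusted p was under 0.05. In untreated cells the difference of SapKO from WT on 1427162_a_at was −3.42 ± 0.271 log2 units (SE, 3 against 3 arrays), which is 10.7-fold, with a limma adjusted p of 3.37e-07. It was 1 of 2 members called there, beside 0.0888% of all probe sets. The other was Elk4 1450549_s_at (−1.21, limma adjusted p 0.0478, and 0.0568 with mouse as a random block). That second call was lost in 20 of 24 fits that left out 1 array (adjusted p up to 0.491). It was kept under 4 of 6 other alternatives. After anti-CD3 the SapKO value of 1427162_a_at fell short of WT by 8.46-fold (limma adjusted p 1.47e-06), the only member called there, beside 0.0755% of all probe sets. ElkSapKO was 10.7-fold below WT untreated (limma adjusted p 6.86e-07) and 7.94-fold below it after anti-CD3 (limma adjusted p 3.74e-06). In the untreated ElkSapKO comparison it was the only member called, where 5.34% of all probe sets were called. Without the array that stood apart the untreated ElkSapKO difference was −2.95 (limma adjusted p 2.3e-08). When only the arrays of untreated ElkSapKO and untreated WT were fitted, the difference of −3.42 was no longer called (adjusted p 0.162). Over the mean of both arrays of each mouse, the 6 mice without Sap lay between 6.82 and 7.83 and the 6 with it between 10.3 and 10.9, so the groups did not overlap. The difference was −3.33 ± 0.150 (SE, 6 against 6 mice), or 10.03-fold, with a limma adjusted p of 3.87e-07.

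**Figure D1:**
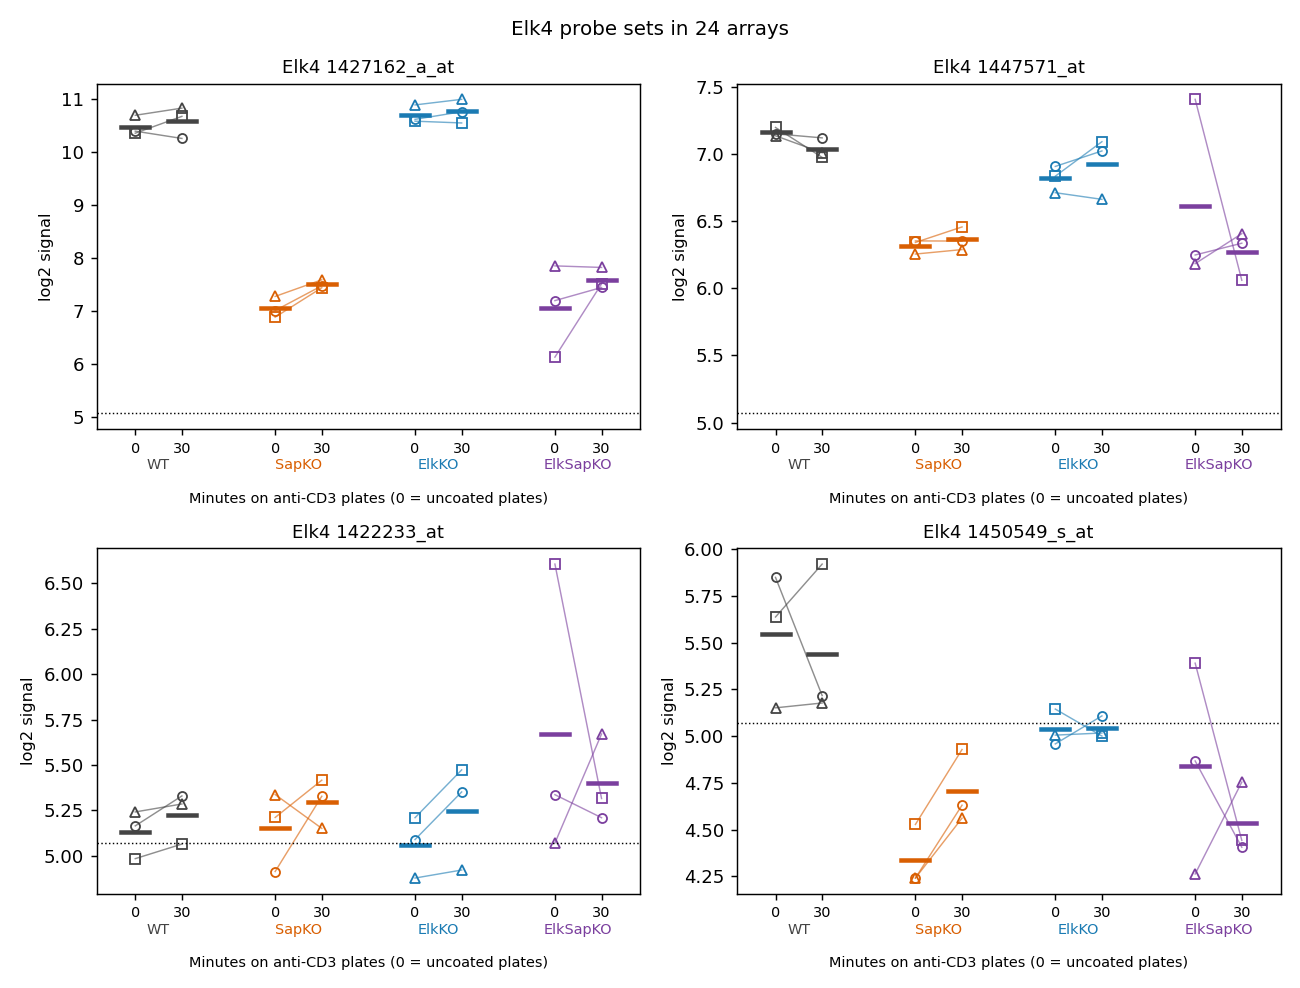
Log2 signal of the 4 Elk4 probe sets on 24 arrays. Each marker is an array (circle, square and triangle for mice 1, 2 and 3), thin lines join the arrays of a mouse, thick bars are group means of 3, and the dotted line is the highest Xist signal, 5.07. On 1427162_a_at the 12 arrays without Sap lie between 6.13 and 7.85 and the others between 10.25 and 10.99, and on 1422233_at the genotypes overlap.

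The other Elk4 probe sets gave smaller differences or none. By Sap genotype, 3 of the 13 probe sets were called, all of them Elk4 probe sets and all lower, where 0.155% of all probe sets were called. Probe set 1447571_at was 0.59 ± 0.0887 (SE) lower without Sap (limma adjusted p 0.0198). Its range of 6.27 to 6.73 in the mice without Sap overlapped that of 6.69 to 7.13 in the others, through ElkSapKO mouse 2, whose untreated array read 7.41. Without that mouse its difference was −0.67 (limma adjusted p 0.00141). Probe set 1450549_s_at was 0.66 ± 0.11 (SE) lower (limma adjusted p 0.0406), at 4.40 to 4.92 against 5.01 to 5.78, values that lay above the Xist mark on 9 of 24 arrays. Leaving out 1 mouse ended the call of 1447571_at for 8 of 12 mice, those of WT and SapKO and ElkKO mice 1 and 2 (adjusted p up to 0.0938). It ended that of 1450549_s_at for all mice but WT mouse 3 and ElkSapKO mice 2 and 3 (adjusted p up to 0.171). Probe set 1422233_at was 0.21 higher without Sap (95% interval −0.05 to 0.48, adjusted p 0.836). It lay above the Xist mark on 19 of 24 arrays. Its highest value, 6.61, was on the untreated array of ElkSapKO mouse 2, the one that stood apart. The mean of all 4 probe sets was 1.09 lower without Sap, a smaller difference than on 1427162_a_at alone.

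Elk1 was read near background by all its probe sets, and its signal was lower without Elk on the brighter ones. Elk1 is the ternary complex factor in which phosphorylation by ERK has been studied most. Probe set 1421896_at exceeded the highest Xist signal on 2 of 24 arrays, and 1421897_at and 1446390_at on 0. Untreated cells read 4.89, 5.23 and 4.70 on 1421896_at for WT, 4.90, 5.04 and 5.07 for SapKO, 4.69, 4.46 and 4.03 for ElkKO and 4.54, 4.74 and 4.14 for ElkSapKO. After anti-CD3 these were 4.69, 4.81 and 4.79 for WT, 4.77, 4.95 and 4.76 for SapKO, 4.69, 4.52 and 4.40 for ElkKO and 4.66, 4.43 and 4.25 for ElkSapKO. Single arrays of the genotypes overlapped. By mouse, means of both arrays were 4.19 to 4.69 in the 6 without Elk and 4.74 to 5.02 in the 6 with it. How many of all probe sets separate in this way by mouse was not counted, here or for the other members.

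On 1421897_at untreated cells read 4.26, 4.25 and 4.62 for WT, 4.43, 4.61 and 4.32 for SapKO, 3.70, 3.88 and 3.68 for ElkKO and 4.08, 4.52 and 3.69 for ElkSapKO. After anti-CD3 these were 4.52, 4.22 and 4.55 for WT, 4.36, 4.35 and 4.75 for SapKO, 3.89, 4.12 and 3.82 for ElkKO and 3.49, 3.82 and 4.08 for ElkSapKO. The ElkKO arrays were all below those of WT and SapKO, and the only array without Elk that reached them, at 4.52, was again that of untreated ElkSapKO mouse 2. By mouse the ranges were 3.75 to 4.17 without Elk and 4.24 to 4.59 with it.

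By Elk genotype, 4 of the 13 probe sets were called, all lower without Elk: these 2 of Elk1 and both of Srf. Among all probe sets 11.1% were called in this comparison, 7.6% lower and 3.51% higher, so calls were common here. The difference was −0.42 ± 0.101 (SE, 6 against 6 mice; limma adjusted p 0.0217) on 1421896_at and −0.54 ± 0.0881 (limma adjusted p 0.00461) on 1421897_at. These are 1.34-fold and 1.45-fold, far from the 10.03-fold of Elk4, on a scale that compresses differences near background. With the dap level as a term the differences were −0.40 (adjusted p 0.334) and −0.64 (adjusted p 0.0935), so neither was then called. WT mouse 3 and SapKO mouse 2 had dap levels like those of the mice without Elk. They read 4.74 and 4.99 on 1421896_at and 4.59 and 4.48 on 1421897_at. The highest values of mice without Elk were 4.69 and 4.17. WT and SapKO each gave a single such mouse, and the part of dap in the Elk1 level was not tested with them. The call on 1421896_at was also lost without WT mouse 2 or any 1 of the SapKO mice (adjusted p up to 0.0586). Against WT by mouse, ElkKO was 0.38 and 0.56 lower on these probe sets, with adjusted p of 0.255 and 0.0985. ElkSapKO was 0.39 and 0.46 lower, with adjusted p of 0.112 and 0.0447. That call on 1421897_at was kept without ElkSapKO mouse 2 and lost without any of the other 11 mice (adjusted p up to 0.138), with array weights (0.0525) and with the dap level as a term (0.15). Probe set 1446390_at lay at 2.61 to 2.98 on all arrays and was 0.10 higher without Elk (adjusted p 0.301).

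**Figure D2:**
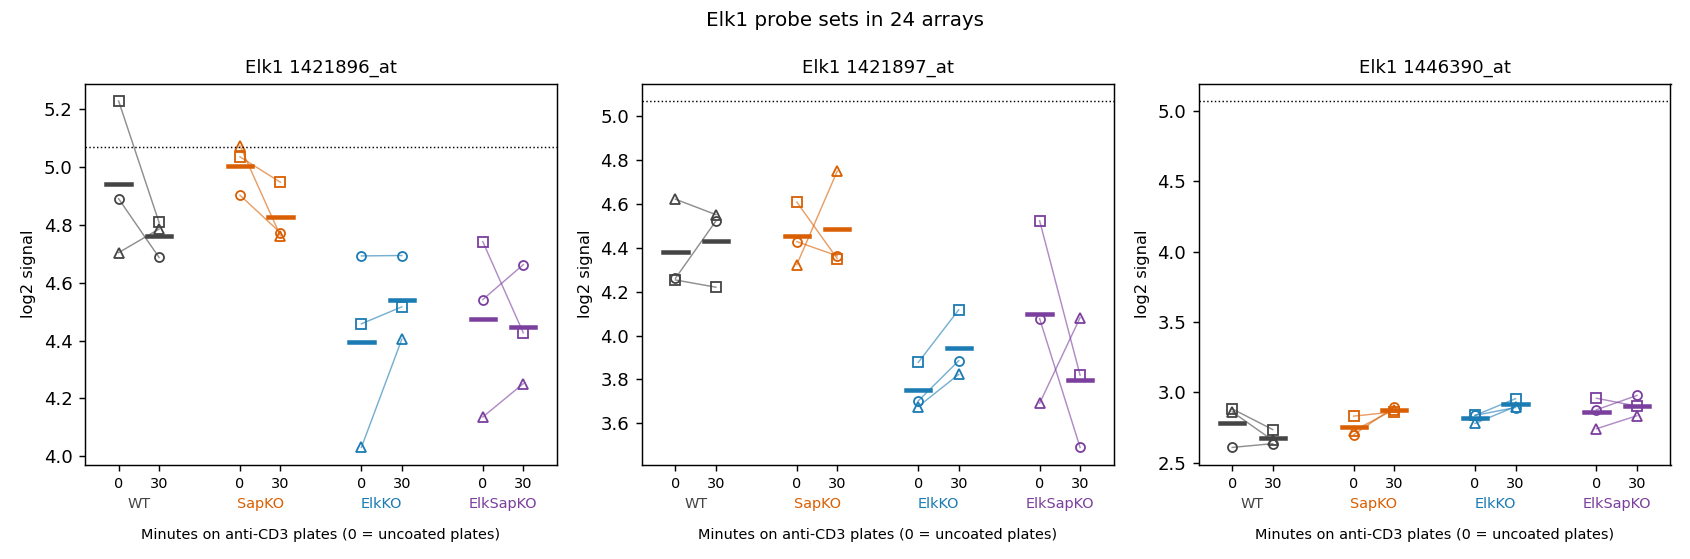
Log2 signal of the 3 Elk1 probe sets on 24 arrays, with markers, lines and bars as in the plot of Elk4. On 1421897_at the ElkKO arrays, at 3.68 to 4.12, lie below all WT and SapKO arrays, at 4.22 to 4.75, and nearly all values lie under the dotted line of the highest Xist signal.

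No other ternary complex factor was called as higher where one was missing. Elk1 did not pass the test in SapKO, where 1421896_at was 0.06 higher than in WT by mouse (95% interval −0.25 to 0.38) and 1421897_at 0.07 higher (−0.21 to 0.34). Elk4 did not pass it in ElkKO, where 1427162_a_at was 0.20 higher (−0.27 to 0.66; adjusted p 0.741). These intervals leave room for rises of that size, so equal levels are not shown.

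Elk3, also called Net, is a ternary complex factor that can repress its targets until it is phosphorylated. Its probe set 1448797_at read 8.44, 8.21 and 8.47 in untreated WT and 8.20, 8.31 and 8.40 after anti-CD3. SapKO read 8.38, 8.19 and 8.50 untreated and 8.43, 8.15 and 8.36 after anti-CD3. ElkKO read 8.54, 8.70 and 8.69 untreated and 8.46, 8.47 and 8.38 after anti-CD3, within or just above the WT range. ElkSapKO read 7.73, 6.10 and 8.28 untreated and 7.94, 7.96 and 8.11 after anti-CD3, of which the value of 8.28 alone lay within the range of WT. In the order of group means, untreated ElkKO came first and stimulated ElkKO next. The change with anti-CD3 between them, −0.21 (95% interval −0.86 to 0.43), was not called. The 4 groups of WT and SapKO followed with overlapping ranges, and stimulated and then untreated ElkSapKO came last.

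In SapKO no Elk3 probe set was called against WT, with differences by mouse of −0.20 to 0.00. In ElkKO they were −0.02 to 0.20, again with none called. All 3 members called in SapKO by mouse were Elk4 probe sets, where 0.12% of all probe sets were called, and 0 members were called in ElkKO, where 0.131% were. Of these 3 calls, that of 1447571_at (−0.76, adjusted p 0.0493) was lost without any mouse of WT or SapKO or ElkKO mouse 1 or 2 (adjusted p up to 0.301). That of 1450549_s_at (−0.97, adjusted p 0.0427) was lost for all mice but WT mouse 3 and ElkSapKO mice 2 and 3 (up to 0.278), and both were lost with the dap level as a term (0.0932 and 0.075). Counting the dap term, the call of 1447571_at was kept under 4 of 6 alternatives that left out no mouse (limma adjusted p up to 0.0996). In ElkSapKO 1448797_at was 0.65 ± 0.219 (SE) lower by mouse (limma adjusted p 0.0887), and in untreated cells its difference was −0.999 ± 0.310 (limma adjusted p 0.0628). Without the array that stood apart the untreated difference was −0.37 (adjusted p 0.146), and without ElkSapKO mouse 3 in its place it was −1.45 (adjusted p 0.00155). The untreated difference was called when only probe sets with a mean of at least 6 were tested (−0.999, adjusted p 0.0373) and with array weights (−0.65, adjusted p 0.000369). Probe set 1417662_at was the only Elk3 probe set called, at 0.53 ± 0.148 (SE) lower in ElkSapKO than in WT by mouse (limma adjusted p 0.0483). It was 1 of 6 members called in that comparison, in which 7.98% of all probe sets were called. The other 5 were 1427162_a_at, 1447571_at and 1450549_s_at of Elk4, 1421897_at of Elk1 and 1418256_at of Srf. The Elk3 call was lost without ElkSapKO mouse 2 (−0.37, adjusted p 0.0915), without any of 9 other mice (adjusted p 0.0524 to 0.13), and with the dap level as a term (−0.41, adjusted p 0.296). Counting the dap term, it was kept under 3 of 6 alternatives that left out no mouse. The third Elk3 probe set, 1435143_at, read 6.78 to 7.56 on all arrays and was 0.16 lower in ElkSapKO (95% interval −0.46 to 0.13). The fourth, 1445886_at, lay under the Xist mark on all arrays.

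**Figure D3:**
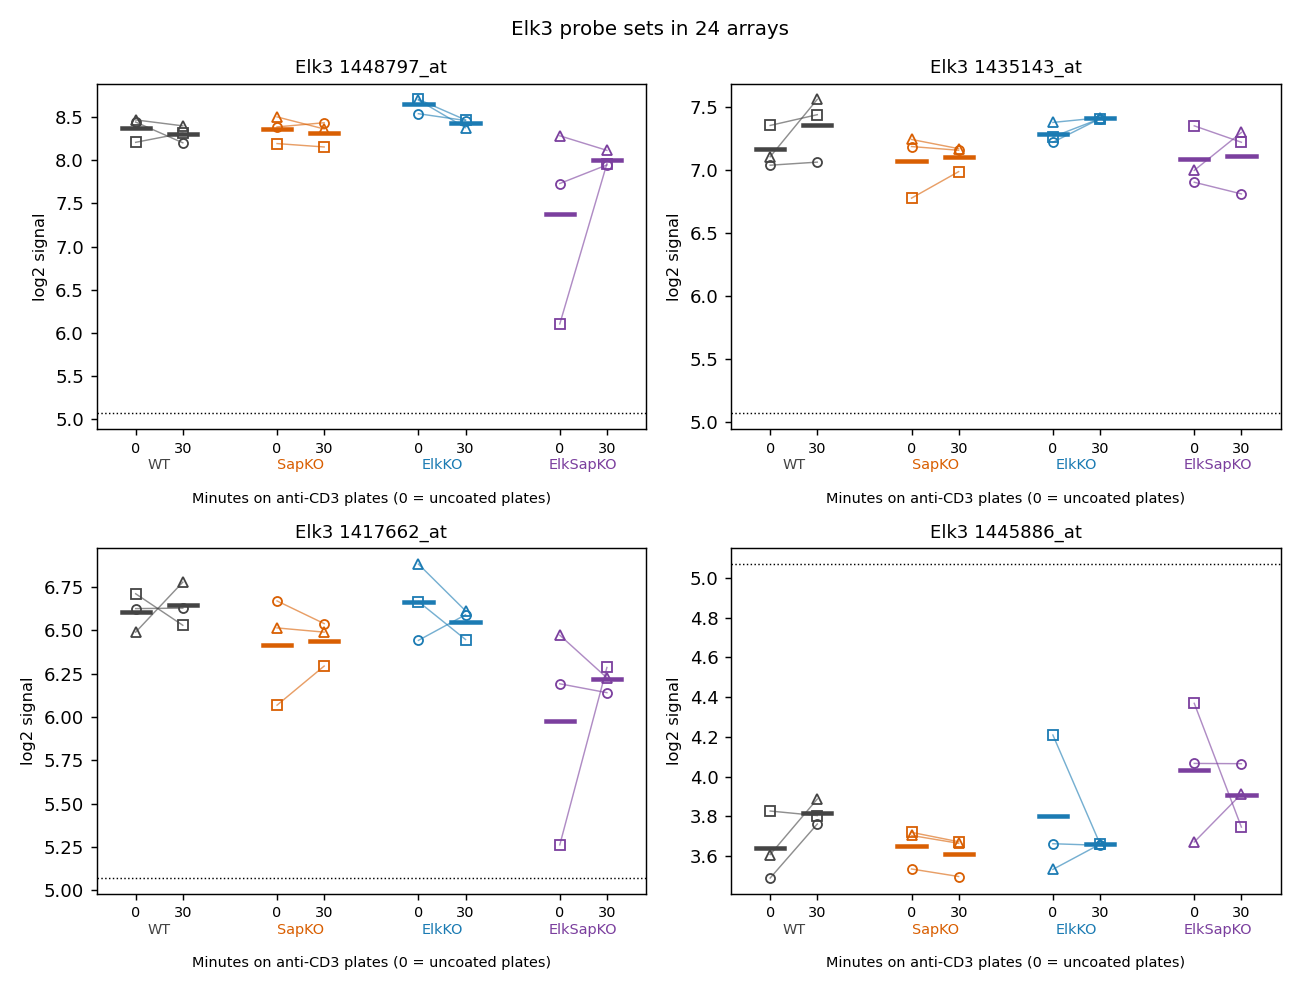
Log2 signal of the 4 Elk3 probe sets on 24 arrays, with markers, lines and bars as in the plot of Elk4. The untreated array of ElkSapKO mouse 2 reads 6.10 on 1448797_at and 5.26 on 1417662_at, the lowest value of each, and the WT, SapKO and ElkKO arrays of 1448797_at lie between 8.15 and 8.70.

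Srf rose with anti-CD3, on average 1.9-fold on its main probe set, which was higher after anti-CD3 in every mouse. Srf binds CArG boxes as a dimer and recruits either family of partners. On 1418255_s_at WT cells read 7.67, 7.40 and 7.75 untreated and 8.49, 8.55 and 8.80 after 30 min of anti-CD3. SapKO read 7.46, 7.44 and 7.40 untreated and 8.39, 8.31 and 8.39 after anti-CD3. ElkKO read 7.28, 7.30 and 7.12 untreated and 7.85, 7.81 and 8.49 after anti-CD3. In these 3 genotypes all stimulated arrays were above all untreated arrays of the same genotype. ElkSapKO read 7.10, 7.65 and 7.02 untreated and 7.92, 8.09 and 8.61 after anti-CD3, again without overlap. Of the stimulated groups WT was the highest on average and ElkKO the lowest, and their ranges, 8.49 to 8.80 and 7.81 to 8.49, touched at the ends.

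The response averaged over the 4 genotypes was 0.93 ± 0.0951 (SE; 95% interval 0.73 to 1.12), or 1.9-fold, with a limma adjusted p of 2.15e-06 and a rise of 0.45 to 1.59 in 12 of 12 mice. Both Srf probe sets and no other member were called in the averaged response, 2 of 13, where 1.45% of all probe sets were called and 1.02% were called higher. Within genotypes the rise was 1.01 ± 0.190 (SE) for WT (limma adjusted p 0.0171), 0.93 for SapKO (adjusted p 0.0372), 0.81 for ElkKO (adjusted p 0.159) and 0.95 for ElkSapKO (adjusted p 0.0291). Calls within a genotype were few, at 0.251% of probe sets for WT, 0.255% for SapKO, 0.151% for ElkKO and 0.258% for ElkSapKO. With mouse as a block, which pairs the arrays of an animal, the adjusted p was 0.0559 in WT, 0.0966 in SapKO and 0.0765 in ElkSapKO, so these calls were lost at unchanged size. The averaged response remained called with the block. Without the array that stood apart the rise was called in ElkKO too (0.81, adjusted p 0.0402), and in ElkSapKO it was 1.15 (adjusted p 0.00462). The WT call was lost without any of 4 of its arrays, untreated 1 or 2 or stimulated 2 or 3 (adjusted p up to 0.15). The SapKO call was lost without any 1 of the 6 SapKO arrays (adjusted p up to 0.203), untreated WT array 1 (0.0544) or untreated ElkKO array 1 or 2 (up to 0.0563). The ElkSapKO call was lost without untreated array 1 or 3 or stimulated array 2 or 3 (adjusted p up to 0.166).

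The second Srf probe set, 1418256_at, read 6.95, 6.75 and 6.80 untreated and 7.49, 7.65 and 7.69 after anti-CD3 in WT, and 6.78, 6.84 and 6.87 untreated and 7.39, 7.47 and 7.31 after anti-CD3 in SapKO. ElkKO read 6.17, 6.50 and 5.87 untreated and 6.83, 6.91 and 6.80 after anti-CD3. ElkSapKO read 6.13, 7.40 and 6.09 untreated and 6.60, 6.74 and 7.05 after anti-CD3. It rose in 11 of 12 mice, the exception being ElkSapKO mouse 2, whose untreated array of 7.40 stood apart and whose change was −0.66. The averaged response was 0.56 ± 0.117 (SE), or 1.48-fold, with a limma adjusted p of 0.0104, and 0.67 (adjusted p 1.47e-06) without that array. Within genotypes it was 0.77 for WT, 0.56 for SapKO, 0.67 for ElkKO and 0.25 for ElkSapKO, with no call. With array weights all 4 rises were called, at 0.79 for WT (adjusted p 0.00935), 0.56 for SapKO (0.0133), 0.53 for ElkKO (0.0462) and 0.61 for ElkSapKO (0.0194). The SapKO rise was also called when only its own arrays were fitted (adjusted p 0.0214). Without the array that stood apart the WT and ElkKO rises were called (adjusted p 0.00496 and 0.0298), and the ElkSapKO rise was 0.68 (adjusted p 0.0705).

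**Figure D4:**
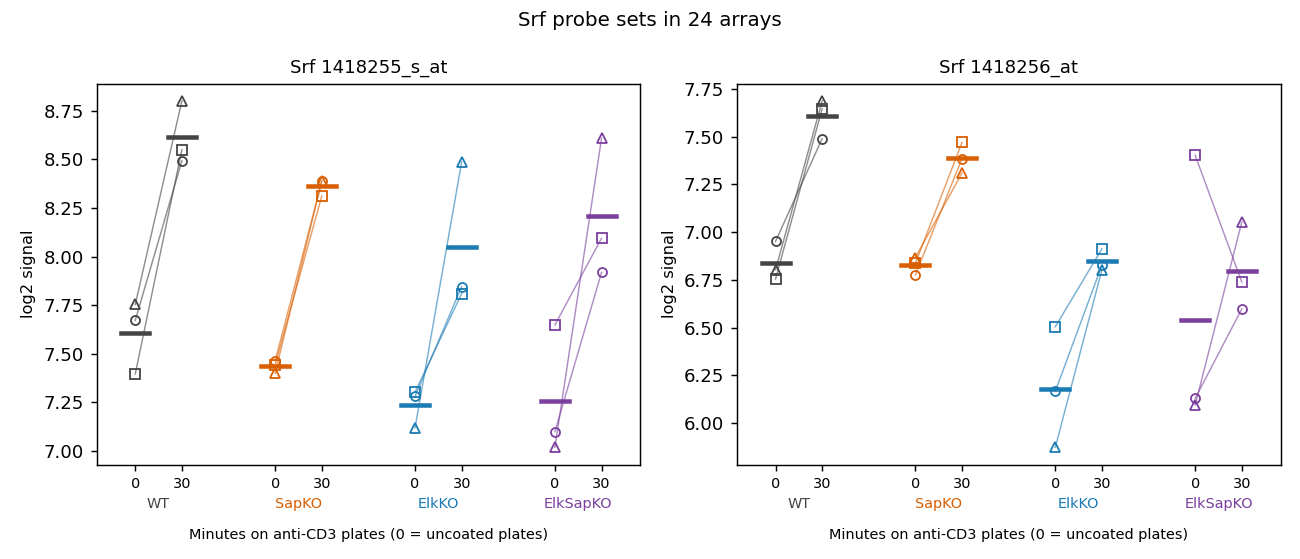
Log2 signal of both Srf probe sets on 24 arrays, with markers, lines and bars as in the plot of Elk4. Every line of 1418255_s_at runs upward, by 0.45 to 1.59, and on 1418256_at the line of ElkSapKO mouse 2 alone runs downward.

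No difference between the Srf response of a knockout and that of WT passed the test. On 1418255_s_at the response differed from WT by −0.08 in SapKO (95% interval −0.64 to 0.48), −0.19 in ElkKO (−0.75 to 0.37) and −0.06 in ElkSapKO (−0.62 to 0.51). The sign in ElkSapKO turned without the array that stood apart, where the difference was 0.14. On 1418256_at the differences were −0.21, −0.11 and −0.52, the last with an interval of −1.20 to 0.17. These intervals are wide: for 1418255_s_at in the combined knockout they run from a loss of 0.62 out of the WT rise of 1.01 to a gain of 0.51. None of the 13 probe sets was called in any of these 3 comparisons by limma. Nor were many others: 0.00222% of all probe sets for SapKO, 0.0% for ElkKO and 0.00222% for ElkSapKO. The members had no unadjusted p under 0.05 there, and the adjusted p of the ternary complex factor probe sets was at least 0.729.

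Srf has both kinds of site in the stretch that precedes its start, and the RefSeq sequence is shown because Srf is the member that rose. Of the start windows of the 4 genes in the RefSeq table (build GRCm38.p6, 250 bases before to 50 after the start), those of Srf and Elk4 held a match. The 250 bases before the start are printed 5′ to 3′ on the gene's strand, for Srf chr17:46556163-46556412 (minus strand) and for Elk4, which did not rise, chr1:132007370-132007619 (plus strand). Capitals mark CArG boxes and the ETS motif CCGGAA, both searched on both strands without overlap between them.
Srf: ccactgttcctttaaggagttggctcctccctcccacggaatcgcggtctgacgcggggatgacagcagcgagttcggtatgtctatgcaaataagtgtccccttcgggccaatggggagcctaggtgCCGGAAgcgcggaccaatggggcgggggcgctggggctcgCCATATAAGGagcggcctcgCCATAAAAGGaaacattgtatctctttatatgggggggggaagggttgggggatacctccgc
Elk4: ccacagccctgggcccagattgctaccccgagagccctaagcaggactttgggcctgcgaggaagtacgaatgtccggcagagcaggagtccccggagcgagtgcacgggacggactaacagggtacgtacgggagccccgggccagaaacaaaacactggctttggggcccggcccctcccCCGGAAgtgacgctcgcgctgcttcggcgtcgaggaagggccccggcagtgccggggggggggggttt

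In Srf the CArG boxes begin at −82 and −62 and CCGGAA at −122, counted from the start site. In this window of Elk4 CCGGAA begins at −68. At least 1 CArG box was present in 1.63% of 32841 start windows and at least 2 in 0.0183% (6 windows), whereas CCGGAA was present in 14.9%. The start windows of Elk1 and Elk3 and the other 2 of Elk4 held neither string. A match is a string of letters and not a measured site, and no binding was measured here.

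The level of Srf, as opposed to its response, was lower in mice without Elk. Averaged over both arrays of a mouse, 1418255_s_at lay at 7.51 to 7.87 in the 6 mice without Elk and at 7.88 to 8.28 in the 6 with it, ranges that nearly met. The difference was −0.32 ± 0.0844 (SE), or 1.25-fold, with a limma adjusted p of 0.0321. On 1418256_at the ranges were 6.34 to 7.07 and 7.08 to 7.24, and the difference was −0.57 ± 0.109, or 1.49-fold (limma adjusted p 0.00841). In this comparison 7.6% of all probe sets were called lower, and how many separate by mouse was not counted. By Sap genotype the corresponding differences were −0.06 (95% interval −0.25 to 0.12) and 0.02 (−0.22 to 0.26), not called. The sex, age and strain are the same in the labels for all mice, but dap and the Actb gap move with Elk, as given above. With the dap level as a term the Srf differences were −0.39 (adjusted p 0.257) and −0.61 (adjusted p 0.207), and neither was called. WT mouse 3 and SapKO mouse 2, with high dap, read 8.28 and 7.88 on 1418255_s_at and 7.24 and 7.15 on 1418256_at. The highest values of mice without Elk were 7.87 and 7.07. WT and SapKO each gave a single such mouse, and the part of dap in the Srf level was not tested with them. For 1418255_s_at the call was kept without WT mouse 2, ElkKO mouse 3 or ElkSapKO mouse 2 or 3, and lost without any of the other 8 mice (adjusted p up to 0.0852). In bulk cells, fewer cells of a kind and less RNA per cell cannot be told apart.

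Against WT in single genotypes, 1418256_at was 0.81 lower in stimulated ElkSapKO (limma adjusted p 0.0422), 1 of 5 members called there, where 6.36% of all probe sets were called. The other 4 were 3 of Elk4 and 1421897_at of Elk1. The Srf call was lost in 18 of 24 fits that left out 1 array (adjusted p up to 0.187) and kept without untreated ElkKO array 2 or 3, any untreated ElkSapKO array or stimulated ElkSapKO array 3. It was also lost when only both groups were fitted (0.0625) and with the dap level as a term (0.123). The call on Elk1 1421897_at (−0.63, adjusted p 0.047) was lost in 18 of 24 such fits too (up to 0.242), and with mouse as a random block (0.0512). It was kept under 3 of 6 alternatives that left out no array. With the dap term 1 of the 5 members remained called, Elk4 1427162_a_at. By mouse Srf 1418256_at was 0.55 lower in ElkSapKO (limma adjusted p 0.0489) and 0.71 lower in ElkKO (adjusted p 0.0929). Srf 1418255_s_at was 0.38 lower in ElkSapKO (adjusted p 0.0717) and 0.47 lower in ElkKO (adjusted p 0.128). The ElkSapKO call by mouse was lost when any mouse but ElkSapKO mouse 2 was left out (adjusted p up to 0.15). It was kept under 4 of 6 other alternatives (limma adjusted p up to 0.208).

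**Figure D5:**
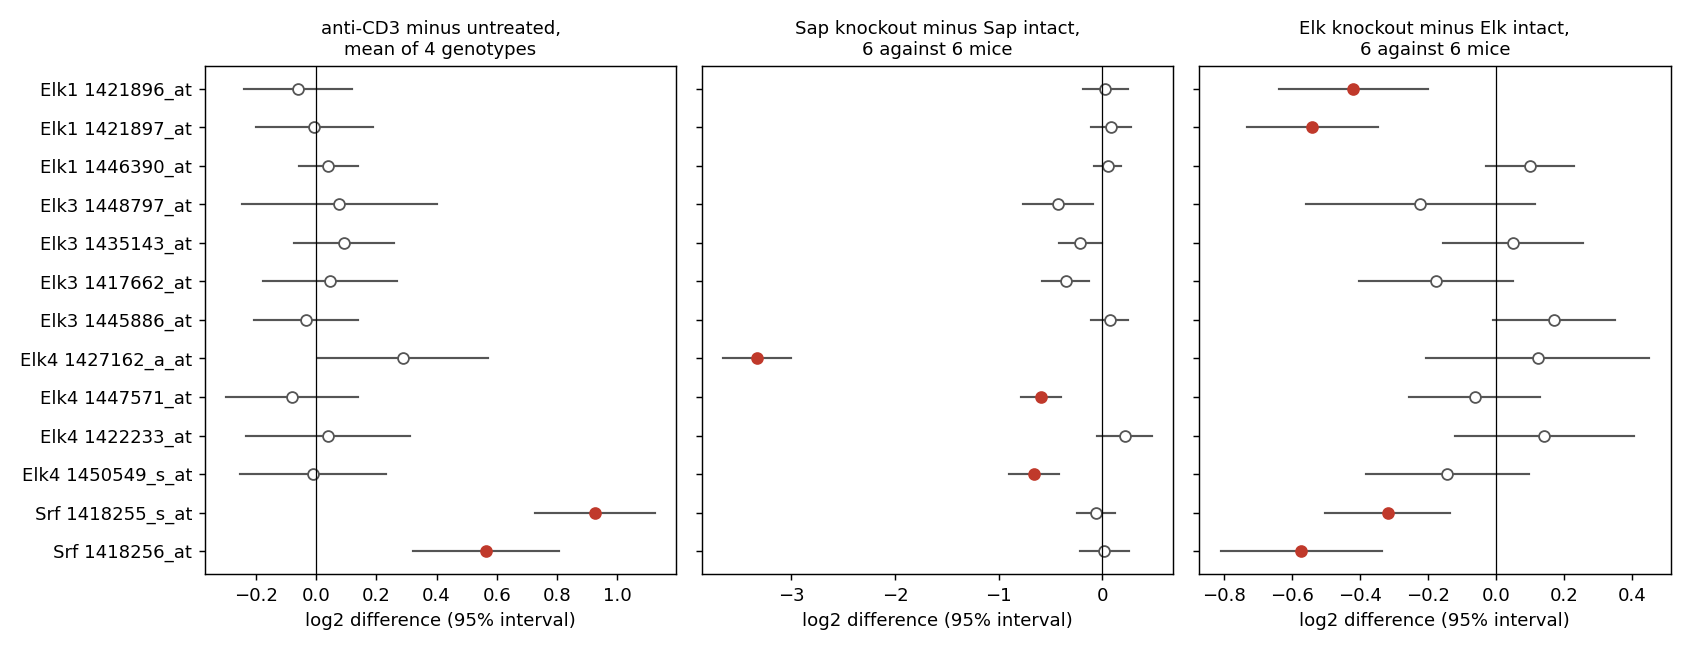
Log2 differences of the 13 probe sets with their 95% intervals, for the averaged response to anti-CD3 (left), for mice without Sap against mice with it (middle) and for mice without Elk against mice with it (right). Filled points have a limma adjusted p under 0.05: both Srf probe sets in the response, 3 Elk4 probe sets by Sap, and 2 Elk1 and both Srf probe sets by Elk, with a separate scale in each panel.

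The ternary complex factors themselves did not pass the test of a response to anti-CD3. None of their 11 probe sets was called in the averaged response by limma, and 1 had an unadjusted p under 0.05, that of Elk4 1427162_a_at. Their averaged changes ran from −0.08 to 0.29. The highest was Elk4 1427162_a_at at 0.29 ± 0.136 (SE; 95% interval 0.01 to 0.57; limma adjusted p 0.629), with a rise in 9 of 12 mice. Its change was largest, 1.38, in ElkSapKO mouse 2, the mouse whose untreated array stood apart. With array weights 1 ternary complex factor probe set was called.

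Genes whose pattern over the 24 arrays was most like that of a member were named by Pearson's r, among probe sets of other genes with a mean of at least 6. These are descriptions over arrays that share groups, with no test. For Srf 1418255_s_at they were Etv3 (r 0.94), Itprip (0.93), Per1 (0.91), Tgif2 (0.91) and Dusp5 (0.90), all of which had a higher mean after anti-CD3 in each genotype. Per1 averaged 6.53 untreated and 8.60 stimulated in WT and 5.87 and 7.37 in ElkSapKO, and Dusp5, a phosphatase that acts on ERK, went from 9.04 to 11.8 in WT and from 8.43 to 10.8 in ElkSapKO. For Elk4 1427162_a_at they were Ncoa7 (0.91), Ube2t (0.88), Kdm5b (0.86), Shisa5 (0.82) and Dzip1 (0.82). Ube2t, a ubiquitin-conjugating enzyme, averaged 8.68 in untreated WT and 8.52 in untreated ElkKO, and 7.65 and 7.39 in untreated SapKO and ElkSapKO. Kdm5b, a histone demethylase, averaged 7.55 and 7.32 against 6.62 and 5.93 in the same groups. Both genes lie on chromosome 1, as Elk4 does, with 46 and 43 of the 1204 protein-coding genes of that chromosome between them and Elk4 in assembly GRCm38.p6. What part a linked stretch around the altered allele has in their levels was not tested. For Elk3 1448797_at the genes were Bag4 (0.96), Opa1 (0.95), Rbpj (0.94), Trib2 (0.94) and Isoc1 (0.94). Without the untreated array of ElkSapKO mouse 2 these fell to 0.68 to 0.80, while those of Elk4 and Srf moved by at most 0.02. No gene is named for Elk1, whose brightest probe set had a mean of 4.67.

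Around these members, 4 lists of the pathway were followed, each gene by its brightest probe set, beside the median change of all probe sets, 0.00 in the averaged response. Of 18 immediate early genes known as targets of ternary complex factors and Srf, 10 rose and 0 fell with anti-CD3, with a list median of 0.72. Egr1, a zinc finger transcription factor, rose by 6.43 ± 0.135 (SE; limma adjusted p 5.04e-18), and its relative Egr2 by 6.16 ± 0.164 (limma adjusted p 3.06e-16). Ier2 rose by 3.23 (limma adjusted p 1.69e-13), and Zfp36, which binds and destabilises messenger RNA, by 2.19 (limma adjusted p 3.73e-13). Within genotypes the number that rose was 9 for WT, 8 for SapKO, 7 for ElkKO and 8 for ElkSapKO. In stimulated cells 8 of the 18 were lower in ElkSapKO than in WT, with a median of −0.81 (all probe sets 0.03), where 4.28% of all probe sets were lower. The share was larger among bright probe sets: 2237 of the 16608 with a mean of at least 6 were lower when only these were tested. With the dap level as a term 5 of the 18 remained lower, Egr1, Egr2, Fosb, Junb and Zfp36, while the calls among all probe sets went from 2864 to 443. Without stimulated ElkSapKO array 1 or 2 the list count was 5 and 4, and without array 1 all calls came to 529. With all 24 arrays and no dap term, Egr2 was 2.15 ± 0.327 lower in stimulated ElkSapKO than in WT (limma adjusted p 0.00146). Zfp36 was 0.99 ± 0.174 lower in that fit (limma adjusted p 0.00415). The difference between the responses of ElkSapKO and WT was called for 0 of the 18 by limma.

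Of 18 genes of the myocardin-related branch, the cofactors and cytoskeletal genes, none passed the test in the averaged response, with a median of 0.04. By Elk genotype 8 of these 18 were lower, with a median of −0.26 (all probe sets 0.04), among them Wdr1, an actin-disassembly factor (−0.75 ± 0.119; limma adjusted p 0.00415), and Zyx, a focal adhesion protein (−0.86 ± 0.137; limma adjusted p 0.00417). In the same comparison 4 of the 18 immediate early genes were lower, with a median of −0.22, among them Fosb (−0.44; limma adjusted p 0.00713) and Ier2 (−0.60; limma adjusted p 0.0091). These counts stand beside 7.6% of all probe sets lower by Elk, and the dap and Actb measures move with the same groups. The lists take the brightest probe set of each gene, and the share was larger among bright probe sets. When only the 16608 probe sets with a mean of at least 6 were tested, 3155 were lower by Elk. With the dap level as a term 0 genes of either list were called by limma, and the calls among all probe sets went from 5005, of which 3425 were lower, to 82, of which 64 were lower. The myocardin-related count ran from 4 to 10 with 1 mouse left out, at 4 without WT mouse 1 or 2, SapKO mouse 1 or 2, or ElkKO mouse 1 or 2, and at 5 without ElkKO mouse 3. With ElkSapKO mouse 2 by its stimulated array alone it was 11, and that of the immediate early genes was 1, Fosb. By Sap genotype 1 immediate early gene was lower, Fosb (−0.56; limma adjusted p 0.014), and 0 of the myocardin-related list were called. The Fosb call by Sap was lost without WT mouse 1 or 3, SapKO mouse 1 or 2 or ElkKO mouse 2, and the list count was 3 without ElkSapKO mouse 3.

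Among 16 other ETS factors, Etv3 was the only one that rose in the averaged response (probe set 1418637_at, 0.80 ± 0.147; limma adjusted p 0.00338), and the list median was −0.02. By Elk genotype 2 of the 16 were lower, Elf2 (−0.46 ± 0.0758; limma adjusted p 0.00489) and Elf4 (−0.52 ± 0.099; limma adjusted p 0.00867), and by Sap genotype 0. Of 9 genes of the ERK cascade that were matched, 0 were called in the averaged response, with a median of 0.08, and 2 were lower by Elk genotype. Beside the Elk counts of both lists, 7.6% of all probe sets were lower. Of the 16608 with a mean of at least 6, tested alone, 3155 were lower, so such calls were common. With the dap level as a term 0 genes of the ETS and ERK lists were called by Elk.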

How the data were processed

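The values are log2 signals of 45101 probe sets on 24 arrays, deposited by the authors. Per the submitters' processing notes they were made by RMA with the affy package, which removes background, brings the arrays to 1 distribution by quantile normalization and reduces each probe set to a value. For tool versions and the build: not given in the sources used here. RMA compresses differences near background, and quantile normalization removes any shift common to all genes. Tests left out the 64 control probe sets. Symbols came from the platform annotation: 34945 probe sets had 1 symbol, 932 had several and 9160 had none. No probe set with several symbols listed a member.

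The tests used limma 3.58.1 in R 4.3.3, on 8 group means (16 residual degrees of freedom) or on the mean of both arrays of each of 12 mice (8 residual degrees of freedom), with Benjamini-Hochberg adjustment over 45037 probe sets in each of 19 contrasts. P-values are two-sided and errors are standard errors unless stated. The fit was tested on simulated data. Figures were drawn with matplotlib 3.10.9.

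The labels give the untreated and stimulated arrays of a mouse the same number. A check over 16608 probe sets with a mean of at least 6 correlated the 12 same-numbered pairs after group means were removed. They correlated at 0.118 to 0.847, all above 0.1, which is a low bar, and the labelled pairs were kept. ElkKO mice 1 and 2 and ElkSapKO mouse 2 did not correlate best with their own number. Their own pairs gave 0.127, 0.199 and 0.118, and the best other number 0.691, 0.650 and 0.237. For these mice the check does not bear out the pairing, and their values by mouse rest on the labels.

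The genes described, the gene lists and the tests were chosen with earlier results of these data known. The named genes are all member probe sets, the 5 genes of highest correlation with each member whose brightest probe set averaged at least 6 (clone-like symbols left out), and from each list up to 4 genes of smallest adjusted p in the averaged response and up to 2 in a knockout comparison. Alternatives tried were median centring, a filter at a mean of 6, mouse as a block, only the groups compared, trended and robust variances, array weights, each array or mouse left out, the dap level as a term, the mean of all probe sets of a gene and ElkKO numbers 1 and 2 exchanged. Chosen after seeing the data were the dap term in the model of mice, ElkSapKO mouse 2 by its stimulated array alone, the correlations without its untreated array, and the counts of the gene lists under the dap term and with arrays or mice left out. The list genes singled out under these settings were named after their values were seen.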

Additional observations from a re-analysis of the deposited data

Results flagged for a closer look

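Elk1 1421896_at had a mean change of opposite sign with anti-CD3 in ElkKO and SapKO mice, and neither change passed the test. It was higher after anti-CD3 in all 3 ElkKO mice, by 0.14 on average (limma p 0.409 before adjustment) and by as little as 0.00132 in 1 of them. It was lower in all 3 SapKO mice, with a mean change of −0.18 (limma p 0.317 before adjustment). The means differ by 0.321, and this difference was not tested. All but 2 of the 24 values of this probe set lie under the highest Xist signal. Groups of 3 were too small to look for single outlying arrays within a group.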

How the results depend on the processing

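The averaged Srf response was called on both probe sets under all alternatives run, and the Elk4 differences by Sap genotype on 1427162_a_at under all but 1: untreated ElkSapKO against WT was −3.42 but not called (adjusted p 0.162) when only those groups were fitted. On 1418255_s_at the response with mouse as a replicate block was 1.01 in WT, 0.93 in SapKO and 0.95 in ElkSapKO, not called (adjusted p 0.0559 to 0.0966). It was likewise not called with ElkKO numbers 1 and 2 exchanged in the block in SapKO (0.93, adjusted p 0.0851) and ElkSapKO (0.95, adjusted p 0.0704). When only the groups compared were fitted it was not called in WT (1.01, adjusted p 0.063) and ElkSapKO (0.95, adjusted p 1.0). The mean of both Srf probe sets gave 0.74 in SapKO and 0.60 in ElkSapKO, not called. Array weights gave a called 0.67 in ElkKO (adjusted p 0.00673), turned the ElkSapKO response difference to 0.042, and called 1 ternary complex factor probe set in the averaged response. By Elk genotype, Srf 1418255_s_at was not called with trended and robust variances (−0.32, adjusted p 0.0573), with ElkSapKO mouse 2 by its stimulated array alone (−0.28, adjusted p 0.0616) or with the dap term (−0.39). With the dap term Srf 1418256_at (−0.61), Elk1 1421896_at (−0.40) and Elk1 1421897_at (−0.64) were not called either. The block changed no other call of a member named here except those of Elk4 1450549_s_at in untreated SapKO (−1.21, adjusted p 0.0568 with mouse as a random block) and Elk1 1421897_at in stimulated ElkSapKO (−0.63, adjusted p 0.0512). The causes were not tested.

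With each array left out in turn, the averaged response ran from 0.87 to 0.97 on 1418255_s_at and from 0.51 to 0.67 on 1418256_at. On 1418255_s_at the WT response ran from 0.90 to 1.08, SapKO from 0.91 to 0.95, ElkKO from 0.59 to 0.93 and ElkSapKO from 0.75 to 1.15. The response differences from WT ran from −0.15 to 0.025 in SapKO, from −0.41 to −0.07 in ElkKO and from −0.26 to 0.14 in ElkSapKO. With each mouse left out, the Elk difference ran from −0.36 to −0.26 on 1418255_s_at, from −0.67 to −0.50 on 1418256_at, from −0.48 to −0.35 on Elk1 1421896_at and from −0.60 to −0.50 on Elk1 1421897_at. Elk4 1427162_a_at ran from −3.81 to −2.87 over its comparisons of single genotypes with WT in 1 state, and from −3.45 to −3.20 by Sap genotype. Signal over background limits Elk1, Elk3 1445886_at and Elk4 1450549_s_at.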
